A study of Mus musculus with 8 samples.

Results

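RNA polymerase II phosphorylated on serine 2 of its C-terminal domain (Ser2P) was compared between a control line and a line with knockdown of Myrlin, the RNA transcribed from an enhancer 81 kb upstream of Myb. The libraries were the 4 of the 8 in the series whose titles name the Ser2P antibody (clone E1Z3G), with 2 from each line. Both lines were MEL cells, a mouse erythroleukaemia line arrested at an early red-cell stage. Per the labels the genotypes were dCAS control and Myrlin KD, the latter named dCAS_Myrlin in the design text, and both lines were grown in the same medium. The labels do not say whether a line was 1 clone or how the replicate cultures were separated. A p-value here thus reflects only how far these 4 libraries differ, and that spread may be technical. The assay was CUT&Tag, in which an antibody directs a transposase to cut and tag nearby chromatin. Overlapping peaks of the 4 Ser2P lists were merged into 48140 regions, against 56005 regions when the lists of all 8 libraries were merged. The other 4 libraries, made with an antibody against serine 5 (Ser5P) in the same 2 lines, entered only as a second readout.

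The C-terminal domain of the largest polymerase subunit is a long run of short repeats whose serines are phosphorylated in order. Serine 5 is phosphorylated near the start site, mainly by the CDK7 kinase, while serine 2 is phosphorylated by CDK9 (the kinase of P-TEFb) and CDK12 as the polymerase enters and crosses the gene body. Ser2P is known to build up towards the 3′ end, where it helps to recruit cleavage and polyadenylation factors. Myb encodes a transcription factor that keeps blood progenitors cycling and is turned down as red cells mature.

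The promoters below are shown as examples of both directions, with the 2 leading control-only promoters (Cyp2r1 and Rassf4), 3 genes of red-cell metabolism picked after their values were seen (Uros, Ampd3 and Urod), and Myb itself. Each is the RefSeq sequence of GRCm38.p6 from 250 bases before to 50 bases after an annotated start, written 5′ to 3′ on the gene's strand. Capitals mark GATAA or TTATC (the core bound by GATA factors and its reverse complement), CACCC or GGGTG (a core bound by KLF factors) and TATAA or TTATA, searched on both strands.
Cyp2r1 (chr7:114562923-114563222, minus strand): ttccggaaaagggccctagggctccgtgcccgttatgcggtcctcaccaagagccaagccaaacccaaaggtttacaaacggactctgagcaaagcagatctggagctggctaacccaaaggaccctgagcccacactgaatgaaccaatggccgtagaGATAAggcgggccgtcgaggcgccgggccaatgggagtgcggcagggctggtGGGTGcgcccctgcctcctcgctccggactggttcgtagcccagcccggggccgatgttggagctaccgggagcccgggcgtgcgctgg
Rassf4 (chr6:116673787-116674086, minus strand): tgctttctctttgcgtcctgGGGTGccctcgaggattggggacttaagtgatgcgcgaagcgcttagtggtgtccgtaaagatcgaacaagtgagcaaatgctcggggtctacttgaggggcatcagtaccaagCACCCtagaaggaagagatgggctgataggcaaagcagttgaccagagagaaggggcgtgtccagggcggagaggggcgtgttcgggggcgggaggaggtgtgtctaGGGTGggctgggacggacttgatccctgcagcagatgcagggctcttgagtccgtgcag
Uros, start inside the gene (chr7:133702451-133702750, minus strand): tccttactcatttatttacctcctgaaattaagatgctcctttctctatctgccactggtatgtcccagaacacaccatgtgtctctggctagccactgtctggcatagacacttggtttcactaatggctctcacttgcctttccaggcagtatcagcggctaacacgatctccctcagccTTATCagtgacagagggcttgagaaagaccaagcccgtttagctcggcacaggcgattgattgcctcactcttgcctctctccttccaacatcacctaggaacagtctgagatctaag
Ampd3, start inside the gene (chr7:110773386-110773685, plus strand): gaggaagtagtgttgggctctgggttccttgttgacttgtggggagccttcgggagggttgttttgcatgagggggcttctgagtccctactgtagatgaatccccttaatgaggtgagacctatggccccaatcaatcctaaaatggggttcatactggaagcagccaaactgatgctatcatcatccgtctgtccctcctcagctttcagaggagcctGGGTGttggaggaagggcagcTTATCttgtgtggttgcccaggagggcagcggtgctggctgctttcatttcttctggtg
Urod (chr4:116994364-116994663, minus strand): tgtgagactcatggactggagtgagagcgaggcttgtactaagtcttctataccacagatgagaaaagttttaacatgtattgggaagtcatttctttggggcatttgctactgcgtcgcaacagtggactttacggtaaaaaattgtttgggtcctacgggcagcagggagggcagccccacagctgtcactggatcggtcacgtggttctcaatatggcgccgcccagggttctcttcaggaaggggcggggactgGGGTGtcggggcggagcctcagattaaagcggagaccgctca
Myb (chr10:21160935-21161234, minus strand): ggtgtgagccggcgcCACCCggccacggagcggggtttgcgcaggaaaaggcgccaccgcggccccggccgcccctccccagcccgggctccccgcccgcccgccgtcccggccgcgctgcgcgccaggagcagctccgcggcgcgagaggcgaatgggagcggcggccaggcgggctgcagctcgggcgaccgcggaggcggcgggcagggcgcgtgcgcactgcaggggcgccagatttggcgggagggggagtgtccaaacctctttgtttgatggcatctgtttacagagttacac
Among 32851 RefSeq promoters of the same length, 25.4% held GATAA on either strand, 57.5% held CACCC and 24.9% held TATAA, so a match in any of the 6 is a description and not a site. In Ser2P the Cyp2r1 sequence was covered by peaks over 300, 300, 0 and 0 bases in control 1, control 2, KD 1 and KD 2, and the Rassf4 sequence over 88, 300, 0 and 0 bases. Both were free of peaks in the KD libraries. The inner Uros sequence, covered over 232, 232, 0 and 0 bases, followed the same pattern. The inner Ampd3 sequence was covered over 0, 0, 300 and 300 bases and the Urod sequence over 0, 0, 248 and 179 bases, the reverse pattern. The Myb sequence was covered over 95, 0, 300 and 300 bases. Of the 43 genes with a control-only Ser2P promoter (both controls, no KD library), 33 had a sequence in the table, with a median of 15 CG dinucleotides per promoter. The reverse group had 206 of 247 genes with a sequence and a median of 18, and genes marked in all 4 libraries (6846 of 8169) had a median of 22, against 7 over all RefSeq promoters.

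The Ser2P lists held 30286 (control 1), 20793 (control 2), 32125 (KD 1) and 29372 (KD 2) peaks. The background pileup, recovered from each peak's fold and p-value and used here as relative depth, was 0.781 and 0.439 in the control libraries and 1.12 and 1.03 in those of the KD line, so depth and line cannot be told apart. Control 2 stood apart. It shared 0.440 of the bases covered by either library with control 1, while control 1 shared 0.482 and 0.489 with the KD libraries, and the KD libraries shared 0.517 with each other. Cutting every list to its 20793 strongest peaks left that order in place, with 0.500 between the controls and 0.554 between control 1 and either KD library. Values are therefore given for all peaks, for lists of equal length, for lists scaled to the depth of control 2, and without control 2. As a check of the cell type, Ser2P covered Alas2, the first enzyme of haem synthesis in red cells, over 1097, 839, 1610 and 1364 bp of its body. The promoter of Klf1, a red-cell transcription factor, was covered over 949, 508, 1189 and 1341 bp. Of 10 erythroid markers, only Hbb-b1 was at 0 in all 4 libraries, and Hba-a1 reached 75 bp in 1 library. Both globin genes have near-identical copies, so their values are uncertain. The summed Ser2P cover of the body and 3′ windows of the 10 markers was 10656, 5458, 10172 and 10675 bp, against 1148, 586, 1286 and 816 bp for 8 lymphoid, 2541, 1176, 3683 and 3865 bp for 8 myeloid and 1287, 688, 1579 and 984 bp for 8 non-haematopoietic markers. The 7 megakaryocyte and mast cell markers summed to 3138, 1793, 3546 and 3233 bp. Cd3e and Rag1 (lymphoid), Elane and Cebpe (myeloid), Cpa3 (megakaryocyte and mast) and Alb and Krt5 (non-haematopoietic) were at 0 in the body and 3′ windows of all 4 libraries. Other members had cover there in at least 1 library. These were 3 of 8 lymphoid, 5 of 8 myeloid, 3 of 7 megakaryocyte and mast and 4 of 8 non-haematopoietic markers, against 9 of 10 erythroid ones.

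Regions with a peak in control 1 and control 2 but in no KD library are termed control-only, and regions with the reverse pattern KD-only. Ser2P was present in all 4 libraries in 14426 of 48140 regions. Control-only regions numbered 764 (1.59%) and KD-only regions 2442 (5.07%). By position, promoters (within 1000 bp of an annotated start of a protein-coding gene) were the most shared class, with 7352 of 10187 regions in all 4 libraries. They held 53 control-only regions (0.52%) and 294 KD-only regions (2.89%). Gene bodies had 3771 of 22385 regions in all 4, with 435 control-only (1.94%) and 1153 KD-only (5.15%). The 3′ ends (from 1000 bp before to 3000 bp past the end of a gene) had 757 of 3970 in all 4, with 54 control-only (1.36%) and 275 KD-only (6.93%). Distal regions had 2546 of 11598 in all 4, with 222 control-only (1.91%) and 720 KD-only (6.21%). The balance towards the KD line did not hold alike in these classes once list length or depth was made equal. The lists scaled to depth were not equal in length, at 25688 (control 1), 20793 (control 2), 21233 (KD 1) and 20812 (KD 2) peaks. The part of this longer control 1 list in the scaled counts was not tested. Both settings drop whole peaks, and the peaks kept have their called widths. At equal length, promoter peaks still covered 5876424 and 4493199 bp in the control libraries and 7056653 and 6676650 bp in those of the KD line. The part of peak width in the counts was not tested.

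At promoters, KD-only regions outnumbered control-only regions under each such setting. They numbered 241 of 9402 (2.56%) against 77 (0.819%) at equal list length, and 160 of 9546 (1.68%) against 105 (1.1%) after scaling to the depth of control 2. In gene bodies the balance turned round, to 473 of 12261 KD-only (3.86%) against 508 control-only (4.14%) at equal length and to 347 of 14137 (2.45%) against 691 (4.89%) after scaling. At 3′ ends it was 130 of 2372 (5.48%) against 67 (2.82%) at equal length and 84 of 2607 (3.22%) against 101 (3.87%) after scaling. At distal sites it was 344 of 7444 (4.62%) against 310 (4.16%) and then 260 of 8251 (3.15%) against 399 (4.84%). Over all classes the equal lists gave 1188 of 31479 KD-only regions (3.77%) and 962 control-only (3.06%), and the scaled lists 851 of 34541 (2.46%) and 1296 (3.75%). Leaving out a library raises the counts by construction, since fewer libraries must then fit the pattern. The line that lost the library then also needs a peak in fewer libraries than the other line. Over all regions the balance moved towards that line, while at promoters it moved either way. The counts per gene below rose in the same way, and their balance at promoters and in bodies moved either way. Without control 2 there were 403 KD-only and 328 control-only promoter regions, 1427 and 3967 in bodies, 339 and 573 at 3′ ends and 959 and 1718 at distal sites. Promoter regions were 1090 KD-only and 154 control-only without control 1, 529 and 167 without KD 1, and 728 and 114 without KD 2. The class in which the KD line kept the larger number under all of these settings was thus the promoters, with a ratio between the 2 directions that ranged widely. Without control 2, a control-only call needs 1 control library and a KD-only call both KD libraries, so the turn in the other classes is not read as a difference between the lines. Under the same rule without control 1, KD-only regions stayed the more numerous in bodies (2753 against 1703), 3′ ends (693 against 232) and distal sites (1752 against 760). What sets the turn was not tested. The counts carry no p-value, and an exact permutation test of 2 libraries against 2 cannot fall under 0.333.

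**Figure D1:**
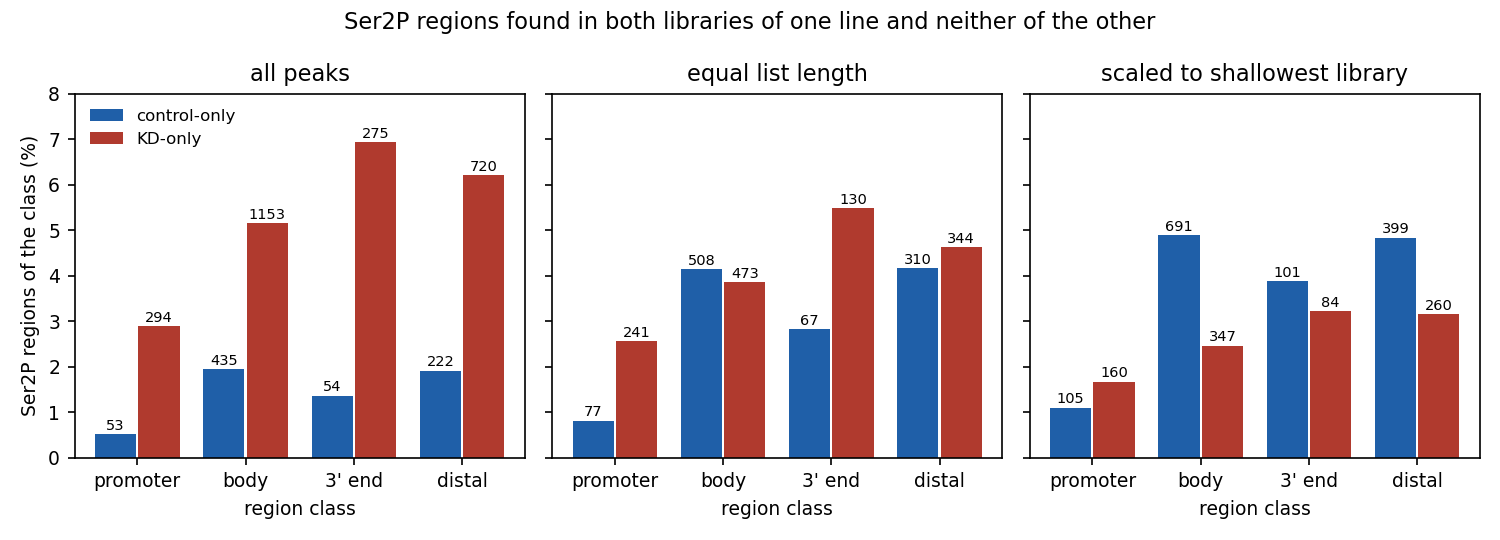
Share of Ser2P regions in each positional class that were control-only (blue) or KD-only (red), with the number of regions above each bar, for all peaks, for lists of equal length and for lists scaled to the depth of control 2. KD-only bars are the taller at promoters in each panel (294, 241 and 160 regions against 53, 77 and 105), while in gene bodies the order turns from 1153 against 435 to 347 against 691.

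Per gene, a library was taken to mark a promoter, body or 3′ window where its peaks covered at least 200 bp of it. Promoter windows were marked at 9552 and 8573 genes in the control libraries and 9848 and 9593 in those of the KD line, and 8169 genes were marked in all 4. Of 21531 genes, 43 had a control-only promoter (0.2%) and 247 a KD-only promoter (1.15%). These counts became 62 (0.288%) and 222 (1.03%) at equal length, 87 (0.404%) and 148 (0.687%) after scaling, and 209 and 347 without control 2.

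The leading control-only promoter was that of Cyp2r1, which encodes a vitamin D 25-hydroxylase. Its promoter window was covered over 746, 729, 0 and 0 bp in control 1, control 2, KD 1 and KD 2. Ser5P covered the same window over 681, 535, 0 and 0 bp, so both marks were found in the 2 control libraries and in neither KD library. Peaks past the 3′ end of Cyp2r1 went another way, at 343, 0, 656 and 506 bp. Rassf4, a Ras-association domain gene, had a promoter covered over 612, 678, 0 and 0 bp in Ser2P and 669, 991, 0 and 0 bp in Ser5P. The remaining leaders were Hgfac, the activator protease of hepatocyte growth factor, at 631, 410, 0 and 0 bp, the signalling adaptor gene Themis2 at 439, 387, 0 and 0 bp, and Ccdc25 at 463, 341, 0 and 0 bp. At Hgfac and Themis2 Ser5P was at 0 in each promoter window, and at Ccdc25 it was present in all 4 libraries (265, 520, 325 and 273 bp). Ser2P over the bodies went another way, at 370, 0, 832 and 550 bp for Hgfac and 312, 0, 743 and 363 bp for Themis2. Ser5P over body and 3′ windows was at 513, 828, 506 and 0 bp for Hgfac and 330, 289, 826 and 884 bp for Themis2. These 5 promoters were chosen among those that kept the call at equal length. They also kept it after scaling, while those of Hgfac and Themis2 were lost with peaks of −log10 q of at least 5. One further region, singled out after its values were seen, lay at a start inside Uros, the uroporphyrinogen III synthase of haem synthesis (chr7:133702352-133702682). Uros has a housekeeping promoter at the outer end and a second promoter inside the gene. Ser2P covered the inner region over 331, 297, 0 and 0 bp and Ser5P over 301, 191, 0 and 0 bp. The window over the Uros starts as a whole was covered in every library (1204, 889, 1089 and 789 bp), so the gene itself was not called.

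Among KD-only promoters the leader was Txndc5, an endoplasmic reticulum disulphide isomerase gene, with 0, 0, 938 and 1151 bp covered. Ser5P there was at 745, 0, 0 and 551 bp, with no separation of the lines. Ampd3, which encodes the AMP deaminase of red cells, followed with 0, 0, 872 and 1029 bp of Ser2P. Its Ser5P cover was 815, 1201, 595 and 1350 bp, so Ser5P was present in each library where Ser2P peaks were found in the KD libraries alone. Irak1bp1 had 0, 0, 936 and 849 bp, and Ptar1, a prenyltransferase subunit-repeat gene with no Ser5P in its promoter window, had 0, 0, 768 and 733 bp. The metalloprotease gene Adamts20 had 24, 0, 747 and 729 bp. Urod, the uroporphyrinogen decarboxylase that follows Uros in haem synthesis, was KD-only at its promoter with 0, 0, 567 and 369 bp of Ser2P. Its Ser5P cover was 444, 1291, 584 and 607 bp, and its 3′ window held Ser2P in all 4 libraries (245, 405, 460 and 220 bp). The 6 calls from Txndc5 to Urod held after scaling and with peaks of −log10 q of at least 5. For the KD-only promoters named here other than Ptar1 and Adamts20, Ser5P was thus found in at least 1 control library.

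Body windows were marked at 5841 and 4278 genes in the control libraries and 6080 and 5725 in those of the KD line. Of 18787 genes with a body window, 130 were control-only (0.692%) and 417 KD-only (2.22%), which became 236 (1.26%) and 206 (1.1%) at equal length, 321 (1.71%) and 145 (0.772%) after scaling, and 610 and 567 without control 2. Taking body and 3′ windows together, 124 genes were control-only (0.576%) and 492 KD-only (2.29%), against 254 (1.18%) and 282 (1.31%) at equal length and 346 (1.61%) and 194 (0.901%) after scaling.

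The 2 leading control-only genes lay close together on chromosome 14. Phf11b, a PHD finger gene (chr14:59320964-59341388), had a single body region covered over 1091, 1000, 0 and 0 bp by Ser2P, and its body and 3′ windows were covered over 1553, 1546, 0 and 0 bp by Ser5P. Rcbtb1, which encodes a protein with RCC1 repeats and a BTB domain (chr14:59201018-59237267), had 1847, 695, 0 and 0 bp over its body and 826, 302, 0 and 0 bp over its 3′ window. Its promoter held Ser2P in all 4 libraries at 845, 832, 864 and 788 bp. The body call of Rcbtb1 held at equal length, after scaling and with peaks of −log10 q of at least 5. Its 3′ call held after scaling but was lost at equal length and with those stricter peaks. Ser5P over the Rcbtb1 body and 3′ windows was at 4148, 4422, 0 and 0 bp, while its promoter kept Ser5P in every library (1111, 641, 518 and 642 bp). At Rcbtb1 the promoters were therefore alike in the 2 lines, and the peaks beyond them were found in the control line alone in both marks. The nearby genes Setdb2 (body 750, 225, 0 and 390 bp), Cab39l (420, 0, 882 and 307 bp) and Phf11c (3′ window 689, 0, 0 and 724 bp) were not called.

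A like arrangement, with a promoter marked in all 4 libraries and a body marked in the controls alone, was seen at several more of the leaders. Grk6, a kinase of G-protein-coupled receptors, had promoter cover of 781, 334, 870 and 760 bp and body cover of 650, 542, 0 and 0 bp, with Ser5P over the gene at 1297, 805, 0 and 0 bp. Bckdhb, which acts in the breakdown of branched-chain amino acids, had promoter cover of 738, 619, 514 and 451 bp and body cover of 618, 610, 0 and 0 bp. Ser5P over its body and 3′ windows was at 0, 0, 0 and 256 bp, so the second mark did not follow there. Ankrd46 (body 666, 518, 0 and 0 bp) and Tmem260 (609, 452, 0 and 0 bp) were of the same form and were lost with peaks of −log10 q of at least 5. Ser5P over the body and 3′ windows was at 661, 776, 505 and 312 bp for Ankrd46 and at 0 in each library for Tmem260. Cobl, an actin nucleator gene with no promoter peak in these libraries, had 807, 675, 0 and 0 bp over its body. Its Ser5P cover there was 0, 731, 0 and 530 bp. Polr3c, a subunit of RNA polymerase III, had 514, 783, 88 and 117 bp over body and 3′ windows together. This joint call was kept at equal length and after scaling and was lost when any overlap marked a window. The body call alone was lost at equal length and after scaling, and the 3′ call when bases near other starts were left out. Ser5P over both windows was at 161, 210, 157 and 280 bp. Ppp1cc, a catalytic subunit of protein phosphatase 1, was control-only at its 3′ window (522, 416, 0 and 0 bp), as was Amh, the anti-Müllerian hormone gene (359, 415, 0 and 0 bp). Ser5P over body and 3′ windows was at 0, 376, 0 and 0 bp for Ppp1cc and 541, 1136, 605 and 648 bp for Amh.

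The leading KD-only gene was Fgf18, which encodes a fibroblast growth factor (chr11:33116970-33147400). Its body was covered over 0, 0, 2698 and 2636 bp, while its promoter held Ser2P in all 4 libraries (406, 292, 780 and 355 bp). Ser5P was present over the same body and 3′ windows in each library and was higher in the KD line, at 1240, 2112, 2975 and 3803 bp. The body signal came from 6 KD-only regions within 16.3 kb, of which 2 kept the call at equal length. Slc6a20a, an amino acid transporter gene, had 0, 0, 1265 and 1261 bp over its body, with Ser5P over the gene in all 4 libraries (400, 884, 402 and 981 bp).

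Xrn1, the cytoplasmic 5′-to-3′ exonuclease, had 0, 0, 706 and 1051 bp over its body and 0, 0, 343 and 249 bp over its 3′ window. Mdn1, an ATPase of ribosome assembly, had 0, 0, 1514 and 1219 bp over both windows, and Mre11a, a nuclease of double-strand break repair, had 0, 0, 956 and 1450 bp. The calls of Mdn1 and Mre11a were lost after scaling, unlike that of Xrn1. Tbc1d31 (188, 0, 1197 and 1080 bp), the lysosomal transporter gene Mfsd8 (0, 0, 1185 and 915 bp) and the forkhead factor Foxk2 (0, 0, 921 and 843 bp) followed, and Fpgs is described with the 3′ ends. At all of these except Slc6a20a the promoter held Ser2P in all 4 libraries.

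**Figure D2:**
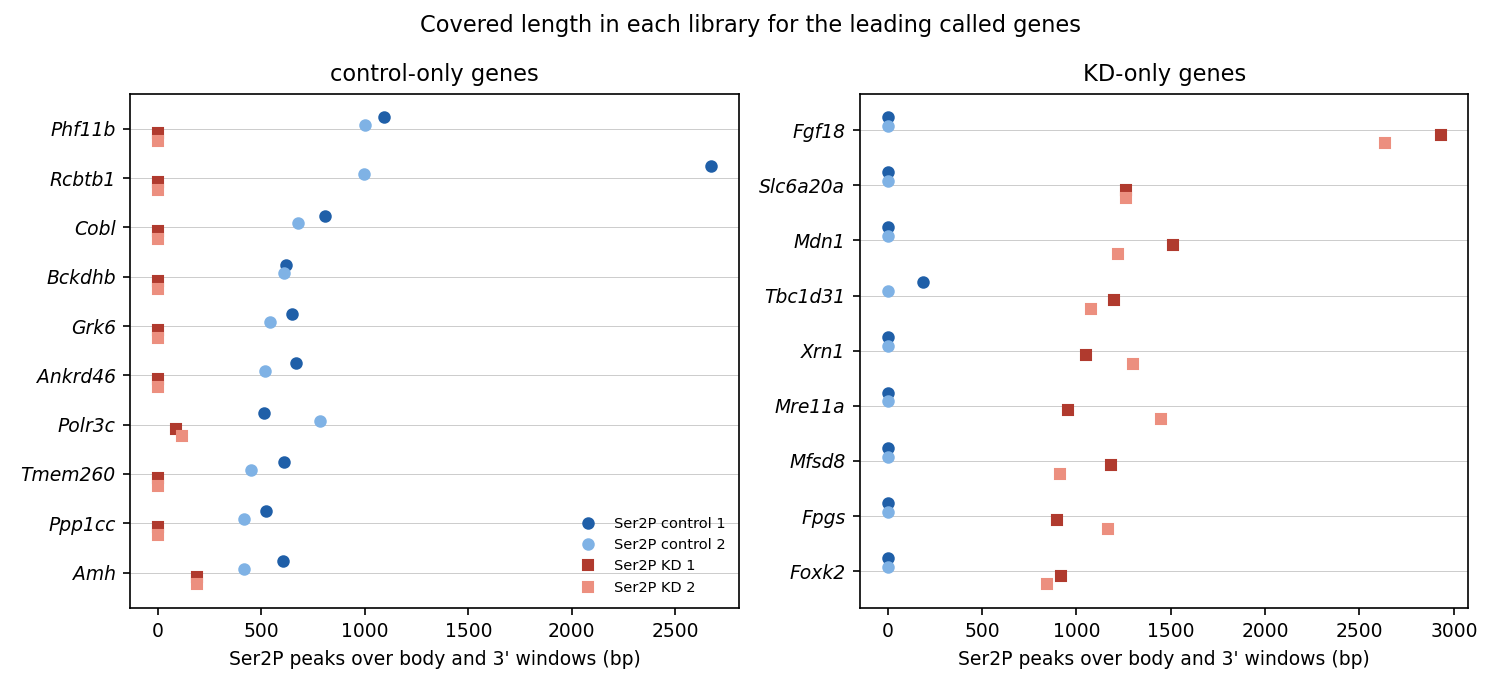
Bases covered by Ser2P peaks over the body and 3′ windows in each of the 4 libraries, for leading control-only genes (left) and KD-only genes (right), which were chosen on these values. Circles are control libraries and squares KD libraries. Fgf18 stands furthest out on the right with 2931 and 2636 bp in the KD libraries, and Rcbtb1 on the left with 2673 and 997 bp in the controls.

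At 3′ ends, where Ser2P is known to be highest, windows were marked at 3474 and 2386 genes in the control libraries and 3845 and 3541 in those of the KD line. Of 21531 genes, 56 were control-only (0.26%) and 332 KD-only (1.54%). Equal lists gave 75 (0.348%) and 181 (0.841%), scaled lists 109 (0.506%) and 124 (0.576%), and leaving out control 2 gave 514 and 413. Nasp, a histone chaperone gene, led the KD-only 3′ windows, at 92, 57, 1521 and 1391 bp. Its promoter was covered alike in the 4 libraries (1319, 1094, 1416 and 1531 bp). Drosha, the nuclease that cuts primary microRNAs, had a 3′ window covered over 0, 0, 1039 and 1285 bp and a body covered in each library (2774, 1936, 2952 and 3592 bp). Fpgs, which adds glutamates to folate, had 0, 0, 895 and 1170 bp. These 3 calls, chosen among those kept at equal length, held after scaling and with peaks of −log10 q of at least 5. The 3′ window of the short histone gene H4c18 (0, 0, 847 and 806 bp) lies wholly past the gene, since the gene's own promoter window was left out of it. In the other direction the leader was Adcy6, an adenylyl cyclase gene, with 950, 565, 0 and 0 bp at the 3′ window and a body covered in each library (1312, 835, 1519 and 1239 bp). Golga7b followed with 469, 395, 0 and 0 bp. The control-only call at the 3′ end of Rgs12 (631, 410, 16 and 0 bp) lay in the promoter of its neighbour Hgfac and was lost when bases near other starts were left out. That setting, chosen after seeing the data, otherwise left 54 control-only and 311 KD-only 3′ windows.

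The position of the Ser2P summits gave the same contrast between raw and equal lists. With all peaks, 30.4% and 39.1% of summits lay in promoters in the control libraries and 29.2% and 31.0% in those of the KD line, and control 2 alone set the higher mean (two-sided exact permutation p = 0.667, n = 2 each). At equal length the shares were 39.9% and 39.1% against 41.1% and 40.6%, and the groups no longer overlapped (difference 1.35 percentage points, exact permutation p = 0.333, the smallest that 2 against 2 allows). The body share was 32.9% and 34.0% against 31.3% and 31.9% at equal length, lower in both KD libraries by 1.93 points on average (difference -1.93, exact permutation p = 0.333). The 3′ share was 6.21% and 6.19% against 6.67% and 6.71%, higher in both KD libraries (difference 0.491 points, exact permutation p = 0.333), but after scaling to depth this difference was 0.031 points. Distal shares were 20.9% and 20.7% against 20.9% and 20.8%.

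**Figure D3:**
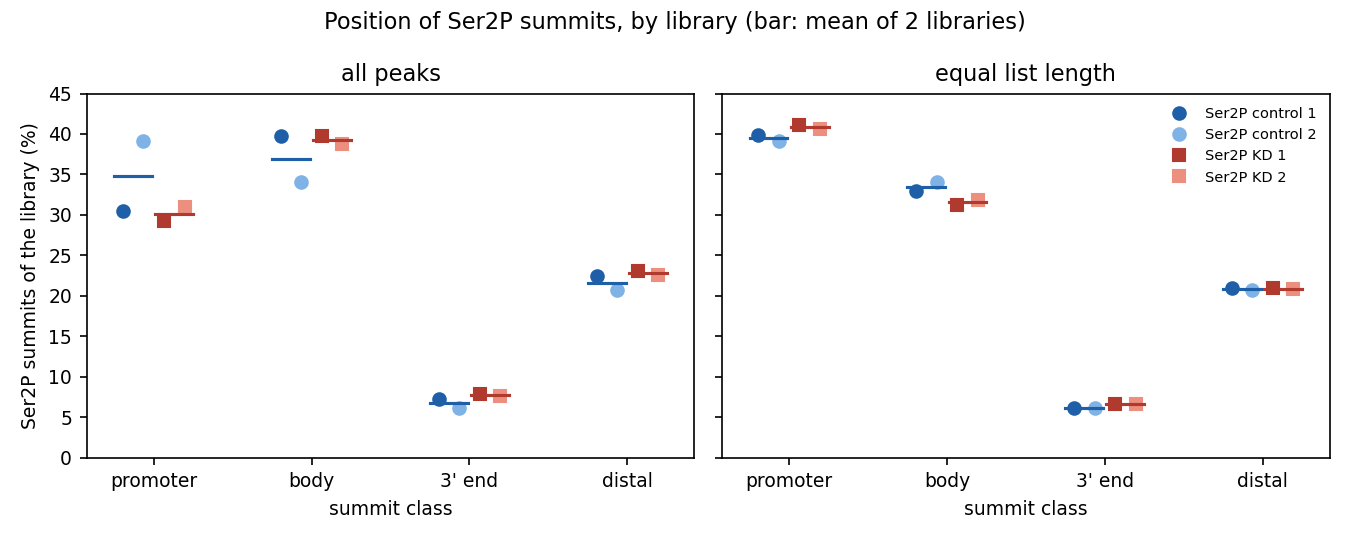
Percent of each library's Ser2P summits in promoters, gene bodies, 3′ ends and distal sites, for all peaks (left) and equal list length (right), with the mean of each pair of libraries as a bar. Control 2 stands apart on the left (39.1% in promoters), and on the right the KD libraries lie above the controls in promoters (41.1% and 40.6% against 39.9% and 39.1%) and below them in bodies.

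Along genes of at least 5 kb, summits were densest in the first 10% of the gene and somewhat denser again towards its end than in its middle. With all peaks the last 10% of the gene plus the 3 kb past it held 13.5% and 10.8% of the summits within genes and flanks in the control libraries and 14.4% and 13.9% in those of the KD line (difference 1.97 points, exact permutation p = 0.333, n = 2 each). At equal length these shares were 10.8% and 10.8% against 11.1% and 11.3% (difference 0.364 points, exact permutation p = 0.333). The 3′ flank alone held 4.68% and 4.65% against 5.13% and 5.20%, while the last 10% itself was at 6.17% and 6.20% against 5.99% and 6.11%. The first 10% held 24.9% and 24.6% against 27.5% and 26.2%, and the 3 kb before the start held 18.9% and 18.3% against 18.1% and 18.6%. The middle of the gene was lower in the KD libraries, with 5.84% and 5.86% against 5.34% and 5.30% in the fifth of 10 bins. At equal length, then, the KD summits were more often in the first 10% of the gene and past its end and less often in its middle, in both KD libraries against both controls. The KD libraries were the deeper pair, and the part of depth in these shares was not tested beyond equal length.

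**Figure D4:**
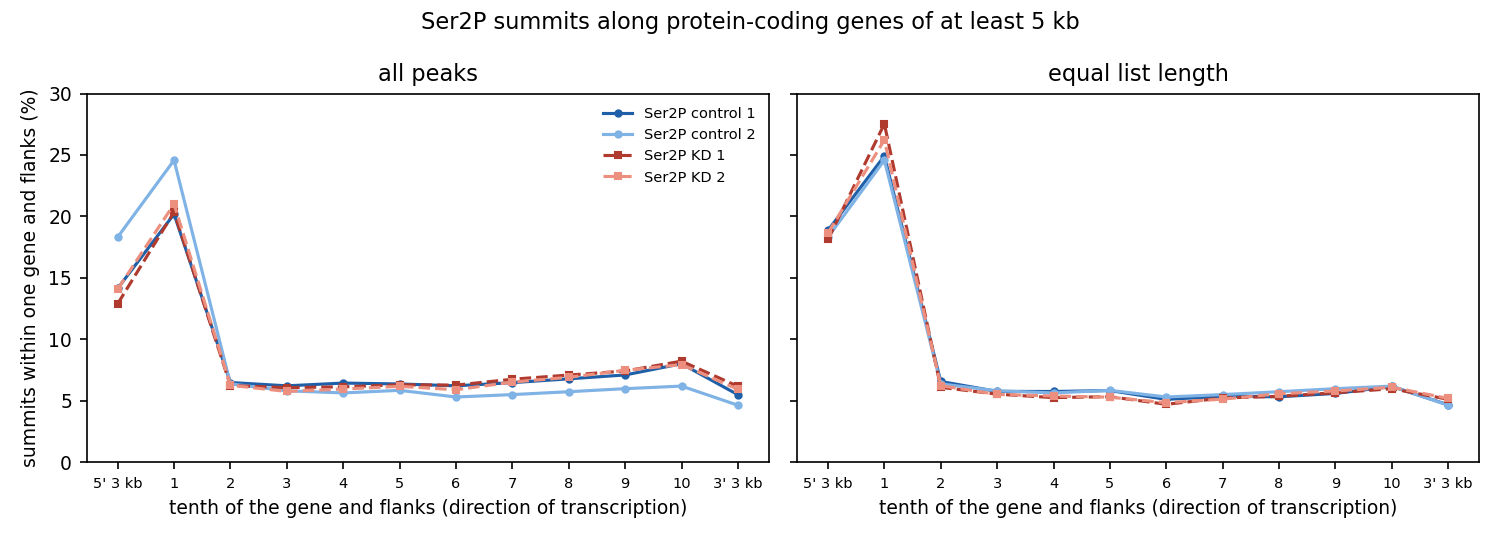
Percent of Ser2P summits in the 3 kb before the gene, in each of 10 bins of the gene and in the 3 kb past it, for each library, over protein-coding genes of at least 5 kb. With all peaks (left) control 2 departs from the other lines, and at equal list length (right) the controls meet at 24.9% and 24.6% in the first bin, below the KD libraries at 27.5% and 26.2%.

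Away from genes, the control-only distal regions with the highest fold over background in both controls lay 9.29 kb from the nearest start, that of Zfp945 (chr17:22876315-22876531, fold 14.4 and 18.7), and 226 kb from that of Cyria (chr12:12488099-12488578, fold 12.6 and 12.8). The folds are the authors' values for each peak. The Zfp945 region had no Ser5P peak in any library, and the Cyria region had Ser5P over 480, 262, 0 and 358 bp. Another region, 24.8 kb from the start of Pde5a (chr3:122704142-122704616, fold 9.55 and 12.3), held Ser5P over 250, 273, 0 and 0 bp, as did one far from Fam174a (chr1:94858473-94858888) over 293, 370, 0 and 0 bp. The leading KD-only distal region lay 98.1 kb from the start of Adgrl2 (chr3:149052500-149052929, fold 10.4 and 11.8), with Ser5P in all 4 libraries at 400, 407, 406 and 424 bp. Regions near Cd84 (chr1:171815781-171816376) and Mcu (chr10:59636668-59637334) likewise held Ser5P in all 4 libraries. Of the 5 leading regions in each direction, Ser5P peaks were therefore limited to the controls at Fam174a and Pde5a, while none of the 5 KD-only leaders had Ser5P limited to the KD libraries. Called regions also lay near one another. Within gaps of at most 50 kb, KD-only regions formed 72 groups of 3 or more (236 regions) and control-only regions 1 group of 3, in lists where KD-only regions were the more numerous. At Frmd4a, which encodes a scaffold protein of cell polarity, 4 KD-only regions lay within 10.1 kb. Of these, 3 kept the call at equal length and 3 were also KD-only in Ser5P.

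Ser5P was not used to call these regions, although it was measured in the same 2 lines and the labels do not say whether in the same cultures. At the 764 Ser2P control-only regions, a Ser5P peak was found at 46.7% and 47.6% in the control libraries and 17.3% and 24.1% in those of the KD line (difference -26.5 points, two-sided exact permutation p = 0.333, n = 2 each). The Ser5P lists held 23964 and 25441 peaks (controls) and 21574 and 24509 peaks (KD), with a background pileup of 0.566 and 0.642 and of 0.649 and 0.837, and the part of list length and depth was not tested beyond equal length. The order held in each class, with 54.7% and 56.6% against 32.1% and 34.0% at promoters, 43.2% and 44.4% against 14.5% and 23.7% in bodies, and 50.5% and 54.1% against 19.8% and 21.2% at distal sites. At the 2442 KD-only regions the Ser5P shares were 27.8% and 31.5% in the control libraries and 28.9% and 36.7% in those of the KD line, which overlapped (difference 3.15 points, exact permutation p = 0.667). With Ser5P lists cut to equal length these became 22.3% and 22.7% against 28.9% and 30.7%, which did not overlap (difference 7.29 points, exact permutation p = 0.333), and the control-only regions gave 41.4% and 39.7% against 17.3% and 19.5%. At regions with Ser2P in all 4 libraries, Ser5P was found at 91.9%, 92.9%, 89.5% and 91.8%.

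Calling the Ser5P libraries by the same rule at the Ser2P regions gave 1251 control-only (2.6%) and 681 KD-only (1.41%) over all 48140. Of the 764 Ser2P control-only regions, 131 (17.1%) were also control-only in Ser5P and 2 were KD-only. Of the 2442 Ser2P KD-only regions, 105 (4.30%) were also KD-only in Ser5P and 58 (2.38%) were control-only. In both directions the share with the same call stood above that over all regions, and it was the larger among control-only regions. KD-only promoters had Ser5P in all 4 libraries at 58 of 294 regions, against 3 of 53 control-only promoters.

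**Figure D5:**
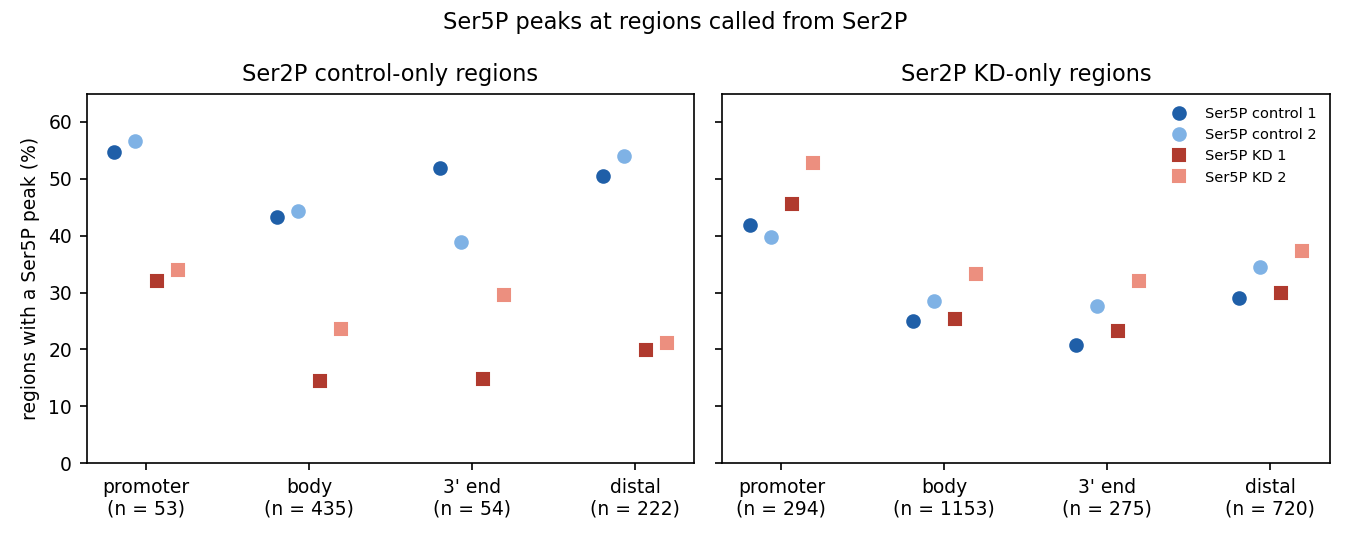
Percent of Ser2P control-only regions (left) and KD-only regions (right) with a Ser5P peak in each Ser5P library, by class with the number of regions. On the left the 2 control libraries lie above the 2 KD libraries in each class, and on the right the groups overlap in bodies, 3′ ends and distal sites but not in promoters (41.8% and 39.8% against 45.6% and 52.7%).

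The genes with the widest Ser2P cover were covered in all 4 libraries. Cbfa2t3, a corepressor of the erythroid TAL1 complex, had the widest body and 3′ cover in its lowest library, at 19238, 12879, 17676 and 16432 bp. Nfia (11120, 7919, 12976 and 10077 bp), a factor of the erythroid lineage, the sphingomyelin synthase gene Sgms1 (12600, 7699, 9973 and 8625 bp), Asap1 (12303, 7572, 14301 and 12258 bp) and the chromatin regulator Ankrd11 (10314, 6687, 11057 and 11652 bp) followed. Runx1, a regulator of blood formation, had 8194, 5187, 9140 and 8604 bp. In each of these 6 genes control 2 was the lowest library, and at Ankrd11 and Runx1 both KD libraries lay above both controls. A limma fit on log2(covered bp + 200) over body and 3′ windows called 0 of 10249 genes in either direction at an adjusted p under 0.05 (0% each, smallest Benjamini-Hochberg adjusted p = 0.370). At an unadjusted p under 0.05 it had 774 genes higher in the KD line and 131 higher in the controls. The median log2 difference over the genes tested was 0.42, a shift of the whole table towards the deeper KD libraries, and was 0.21 at equal length and 0.12 without control 2.

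Among groups of genes, 50 DNA replication and cell cycle genes had 5 KD-only 3′ windows (1.54% of all genes) and no control-only one. At equal length they had 4 and 0 (0.841% KD-only over all genes). They included Top2a, the topoisomerase that untangles chromosomes, with 0, 0, 440 and 632 bp, and Mcm4, of the replicative helicase, with 0, 0, 372 and 864 bp. Birc5 (survivin) had 0, 0, 322 and 620 bp, Tyms (thymidylate synthase) 0, 0, 652 and 293 bp, and Cdc45 66, 0, 215 and 749 bp. Of these 5, Birc5 and Tyms kept the call at equal length and Birc5 also after scaling. The promoter of Bub1, a spindle checkpoint kinase, was KD-only at 0, 0, 649 and 507 bp (against 1.15% of all genes), a call lost at equal length. Promoters of 46 to 50 of these 50 genes were marked in each library, a higher share than over all genes, many of which had no peak. The median log2 difference of the list, 0.44, was near the 0.42 of all genes tested.

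Of 77 cytosolic ribosomal protein genes, 3 had a KD-only 3′ window (against 1.54% of all genes, among them Rpl6 at 0, 0, 316 and 781 bp and Rpsa at 0, 0, 523 and 615 bp) and none a control-only one, with 5 and 0 at equal length (0.841% KD-only over all genes) and 2 and 0 after scaling (0.576%). Rpl6 and Rpsa lost the call at equal length, where other members were called. Rps9 and Rpl8 were KD-only at the promoter (0, 0, 425 and 290 bp, and 0, 0, 290 and 398 bp, against 1.15% of all genes). The Rps9 call was lost at equal length, and both were lost after scaling. The list's median log2 difference was 0.70. These genes are short, with a body window marked at 1 or 2 of them in each library, so their values come from the 3′ ends.

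Of 30 genes for serine 2 kinases and elongation factors, the promoter of Aff4, the scaffold of the super elongation complex (0, 0, 684 and 409 bp), was KD-only and stayed so at equal length and after scaling. Ctr9 of the PAF complex was KD-only in its body (0, 0, 432 and 358 bp) and Rtf1 at its 3′ window (0, 0, 334 and 350 bp). Supt6, a histone chaperone that travels with the polymerase, was KD-only in its body (0, 0, 448 and 233 bp). Of these 3, Ctr9 kept the body call at equal length. Ccnt1, the cyclin of P-TEFb, was control-only in its body (273, 239, 0 and 0 bp), a call lost at equal length. Over all genes, KD-only calls stood at 1.15% for promoters, 2.22% for bodies, 1.54% for 3′ windows and 2.29% for body and 3′ windows together. Control-only bodies stood at 0.692%. Calls of a few members describe those genes and not the list. Of 30 genes for 3′ end processing and termination, Pabpn1, a nuclear poly(A)-binding protein gene, was the only one called, KD-only at 0, 0, 320 and 298 bp, and it was lost at equal length. Of 12 MLL1 complex genes, Psip1, which tethers MLL1 to chromatin, was KD-only in its body (0, 0, 440 and 530 bp), and Kmt2a, the MLL1 gene itself, was KD-only over body and 3′ windows together (0, 0, 347 and 575 bp), a call lost at equal length.

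Among 25 erythroid regulators and surface genes, Gata1, the master factor of red cells, was KD-only in its body (0, 0, 235 and 251 bp), E2f2 at its promoter (0, 0, 447 and 247 bp) and Spi1 at its 3′ window (0, 0, 492 and 324 bp). All 3 calls were lost at equal length, and the list's median log2 difference was 0.42, that of all genes tested. Over all genes, KD-only calls stood at 1.15% for promoters, 2.22% for bodies and 1.54% for 3′ windows. Control-only calls stood at 0.692% for bodies, 0.26% for 3′ windows and 0.576% for body and 3′ windows together. Of 22 haem and iron genes, Urod was KD-only at its promoter and Hmox2, a haem oxygenase, was control-only over body and 3′ windows together (349, 236, 0 and 0 bp), a call lost at equal length. Of 18 progenitor genes linked to Myb, Spi1 and Birc3 (body 0, 0, 322 and 294 bp) were KD-only, both calls lost at equal length, and Flt3, Mycn and Sox4 were at 0 in each library. Of 34 respiratory chain genes, Ndufa10 and Uqcrc2 were KD-only at the 3′ window (0, 0, 810 and 247 bp, and 0, 0, 590 and 730 bp) and Sdhd was control-only in its body (218, 290, 0 and 0 bp). The calls of Ndufa10 and Uqcrc2 (2 of 34, against 1.54% of all genes) were lost at equal length and after scaling, while that of Sdhd was kept. Of 30 splicing factor genes, Srsf6 and Hnrnpd had KD-only 3′ windows (0, 0, 536 and 330 bp, and 0, 0, 419 and 439 bp, against 1.54% of all genes). Srsf6 was lost at equal length and both were lost after scaling. Of 38 immediate-early and stress genes, Hspa5 had a KD-only 3′ window (70, 0, 288 and 391 bp) and Gadd45a a control-only one (299, 234, 15 and 0 bp). With all peaks, no member of the 13 HOXA and MEIS genes or of the lymphoid, myeloid and non-haematopoietic marker lists was called. Many could not be, since 10 of the 13, 5 lymphoid, 3 myeloid and 4 non-haematopoietic genes were at 0 in each library. At equal length 1 of the 13 had a KD-only 3′ window, and 1 non-haematopoietic gene had a KD-only body at −log10 q of at least 5. Gp9, a platelet glycoprotein gene, was KD-only at its 3′ window (165, 0, 376 and 270 bp).

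At the Myb locus, the window of 2000 bp each side of the point 81 kb upstream of Myb held Ser2P over 302, 0, 0 and 316 bp, with 1 library of each line marked. The Myb promoter window was covered over 366 and 215 bp in the control libraries and 1081 and 1005 bp in those of the KD line, groups that did not overlap (means 290.5 ± 107 and 1043 ± 53.7 bp, SD, n = 2 each, exact permutation p = 0.333). These values are from all peaks. At promoter regions present in all 4 libraries the median cover was also wider in the deeper KD libraries, at 721, 564, 833 and 799.5 bp. The part of depth at Myb was not tested. Over the Myb body the cover was 1527, 0, 545 and 446 bp, and at its 3′ window 0, 0, 0 and 499 bp, so neither window separated the lines. Ser5P covered the Myb promoter window over 334, 432, 339 and 445 bp. The neighbour Hbs1l, a translation rescue factor gene, had body cover of 1255, 903, 1562 and 1890 bp and promoter cover of 488, 646, 446 and 502 bp. Ahi1, a cilium gene on the other side, had body cover of 1887, 1700, 2260 and 1745 bp and promoter cover of 590, 669, 691 and 723 bp. Of these 3 promoters the difference was 752.5 bp at Myb, 77.5 bp at Ahi1 and -93 bp at Hbs1l. None of the 3 genes was called by presence or absence.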

How the data were processed

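CUT&Tag peak lists of 4 Ser2P and 4 Ser5P libraries were used, each called separately. The submitters' processing notes name MACS2 2.2.7.1, deepTools 3.3.1, Bowtie2 2.3.5, Picard 2.21.4, SAMtools 1.9 and cutadapt 2.7, without their roles, and the builds GRCm38 and mm10. Parameters of these tools were not given in the sources used here. With each peak the authors deposited a display score, a fold enrichment over background as a ratio, a −log10 p-value and a −log10 q-value, and per the values the lowest −log10 q lay between 1.30 and 1.31. Peaks on other sequences than the autosomes, X and Y (24 to 26 per Ser2P library) were left out.

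No read totals entered. The summit pileup and background were solved from fold and p (tolerance 0.001 on −log10 p, solved for every Ser2P peak) and gave the relative depth and, without random draws, lists scaled to the library with the lowest background. Genes and strands came from RefSeq GRCm38.p6 (17491 genes) or, by name, GENCODE vM1 (4040), so 21531 of 21883 protein-coding genes were used. Promoter windows spanned 1000 bp each side of every RefSeq start. Bodies ran from 1000 bp inside the outermost start to 1000 bp before the end, and 3′ windows from 1000 bp before to 3000 bp past the end. The gene's own promoter windows were left out of its body and 3′ windows. A region was present in a library at 1 bp of overlap, and a window was marked at 200 bp. Covered bp were compared with limma 3.58.1 in R 4.3.3 (Benjamini-Hochberg), which was tested on simulated data. Single values were compared by two-sided exact permutation tests, whose smallest p is 0.333.

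The members, the lists and the tests were chosen with earlier results of these data known. Named genes were the 10 per direction that kept their body or 3′ call at equal length, ranked by the smaller cover of the marked libraries, the 5 promoters, 3′ windows and distal regions per direction ranked alike (distal by fold), the 12 with the widest cover in the lowest library, up to 4 called members of each list, and Myb with its neighbours. Predicted genes were passed over, and some genes are not reported here. Top2a, Bub1, Rpl6, Aff4, Supt6, the inner Uros region, Frmd4a, the genes near Rcbtb1 and the markers were named outside that rule after their values were seen. The replicate numbers were not taken as pairs.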

Additional observations from a re-analysis of the deposited data

How the results depend on the processing

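Region counts moved with the settings. Peaks of −log10 q of at least 5 gave 451 control-only and 1422 KD-only regions in all, 32 control-only promoters, 254 and 539 in bodies, 25 and 160 at 3′ ends and 140 and 403 at distal sites. Equal list length gave 1188 KD-only regions in all, 473 in bodies, 130 at 3′ ends and 344 at distal sites. Scaling to the lowest background gave 1296 control-only and 851 KD-only regions, 105 and 160 at promoters, 691 and 347 in bodies, 101 and 84 at 3′ ends and 399 and 260 at distal sites. Requiring a peak over at least 50% of the region gave 801 KD-only promoters. Leaving out each library in turn gave 1325 to 6586 control-only and 3128 to 9561 KD-only regions, 114 to 328 and 403 to 1090 at promoters, 727 to 3967 and 1427 to 5314 in bodies, 98 to 573 and 339 to 970 at 3′ ends and 386 to 1718 and 959 to 2549 at distal sites, since fewer libraries then have to fit.

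Per gene, −log10 q of at least 5 gave 25 control-only promoter and 26 control-only 3′ windows. Equal length gave 236 control-only and 206 KD-only bodies and 181 KD-only 3′ windows, and scaling gave 87 and 148 promoters, 321 and 145 bodies and 109 and 124 3′ windows. Leaving out each library gave 93 to 209 control-only and 347 to 1033 KD-only promoters, 262 to 610 and 567 to 1363 bodies and 111 to 514 and 413 to 943 3′ windows. The balance over all regions then moved towards the line that lost the library, while at promoters and per gene it moved either way.

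The KD minus control difference in promoter summits (-4.66 points with all peaks) turned to 1.35 at equal length and 3.68 after scaling, in body summits (2.38) to -1.93 and -3.58, in distal summits (1.22) to -0.130 after scaling, and in the 5′ flank plus first 10% of genes (-4.44) to 1.92 at equal length. The cause of these changes was not tested. The 40 named calls were chosen among those kept at equal length, and 38 of them were kept after scaling, 29 at −log10 q of at least 5, 34 with any overlap and 39 without bases near other starts, and 0 turned round.

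With the replicate number as a block, limma again called 0 genes in either direction (796 and 111 at an unadjusted p under 0.05). Same-numbered libraries deviated together with r = 0.0307, and the labels give the numbers no shared batch. Without the filter limma called 116 genes higher in the KD line and 30 higher in the controls among 21531, most of them with no covered base and so no residual variance, on which its shared variance estimate then rests. Leaving out each library in turn called 0 to 0 genes. Depth limits what absence of a peak means, above all in control 2.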
